A study of Mus musculus with 6 samples.

Results

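Classical monocytes without Arg1 were taken here as kidney leukocyte barcodes that carry the RNA of a Ly6C-high blood monocyte and no Arg1 (arginase 1, an enzyme of repair-type myeloid cells). A barcode needed 500 or more gene UMIs (unique molecular identifiers, 1 per captured RNA molecule), 200 or more genes, at most 15% mitochondrial UMIs and at least 0.3% Malat1. It then needed 1 or more Ly6c2 UMIs, 2 or more of Chil3 and Plac8 together, 1 or more of Lyz2, and none of Arg1. Barcodes with 0.3% or more C1q, 1% or more S100a8 and S100a9, or any UMI of Ace, Cd300e, Treml4, Cd3e, Cd79a or Ncr1 were excluded. The members were thus selected on their own RNA, and 147 of 12596 barcodes that passed the quality steps met the rule. They numbered 7, 6 and 7 in the 3 control libraries and 17, 58 and 52 in the 3 rhabdomyolysis libraries.

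All libraries came from CD45+ live cells sorted from kidneys of C57BL/6J mice aged 8 weeks. The control group had no injury named in the labels, and the other group had rhabdomyolysis-induced acute kidney injury, in which muscle breakdown products damage the kidney. The labels name no agent and no time after injury. They do not say that libraries came from separate animals, so p-values refer to libraries and not to animals. The p-values of the gene tests also borrow spread from other genes. The libraries held 10816727 to 22656666 gene UMIs.

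Classical monocytes leave the bone marrow through the receptor Ccr2 and enter injured tissue, where they can turn into macrophages. Nonclassical monocytes patrol the vessel wall, depend on the nuclear receptor Nr4a1 and carry Cx3cr1. In mouse blood, the nonclassical cells are derived largely from classical ones.

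The members' own gate genes were high, as the rule fixed. In the rhabdomyolysis libraries Chil3, a chitinase-like secreted protein, stood at 17959, 11613 and 11333 CPM (counts per 1000000 of the gate's summed UMIs in a library). Ly6c2, which encodes the surface antigen Ly6C, stood at 242, 397 and 509 CPM. In the control members Chil3 was lower, at 528, 2927 and 812, and Ly6c2 was higher, at 692, 1699 and 613. Members varied in the margin by which they met the rule: 39 of the 127 rhabdomyolysis members had exactly 1 Ly6c2 UMI and 19 had 2. A further 221 rhabdomyolysis barcodes met every other part of the rule with 0 Ly6c2 UMIs, and 13 failed on 1 Arg1 UMI alone.

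The name held for the rhabdomyolysis members and only partly for the control ones. Of 127 rhabdomyolysis members, 121 (95.3%) had 2 or more UMIs of F13a1, Fn1, Vcan and Hp, which mark classical monocytes and were no part of the rule. Only 11 of 20 control members (55%) did so. The other 9 control barcodes had no Chil3 UMI, 125 Lyz2 UMIs against 4408 in the 11, and 1104 of the 1364 Cd74 UMIs. They also held 129 UMIs of plasmacytoid dendritic cell markers and 70 of T cell markers. The 6 rhabdomyolysis members without those genes held 470 of the 502 H2-Aa UMIs and 211 UMIs of plasmacytoid markers. Results that rest on these barcodes are given with and without them, and the requirement was chosen after the data were seen. Of its genes, Vcan (1 control UMI) and Hp were higher after rhabdomyolysis, by log2 differences of 4.91 and 2.27 over all members. With the requirement the differences were 4.18 and 1.5. The 95.3% and 55% thus rest in part on genes that differed between the groups.

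The members also carried marker RNA of related lineages. Macrophage markers gave the most, at 4115 to 8891 CPM in the rhabdomyolysis members and 7023 to 11848 in the nonclassical gate. Of the 121 members with identity genes, 114 had 2 or more UMIs of the macrophage list, 7223 in all. Neutrophil and progenitor RNA was lower and came mostly from a single gene per list. Neutrophil marker RNA summed to 151 to 854 CPM in the rhabdomyolysis members and to 79.2 to 205 in the nonclassical gate, with Ly6g and Stfa2l1 at 0. Of 121 members, 69 had 2 or more UMIs of that list, which held 679 UMIs there and 10 in the other 6 members. Il1r2 alone gave 562 UMIs over all 127 members. Progenitor markers summed to 158 to 216 CPM, with Mpo and Ms4a3 at 0, and 48 of the 121 had 2 or more. That list held 219 UMIs in the 121 and 4 in the other 6, and Prtn3 alone gave 208 over all 127. Among the 121, 1 member had 2 or more erythroid UMIs, of 851 in all. No doublet caller was run, and the part of mixed droplets in these values was not tested. Between any 2 libraries 0 to 3 barcodes were shared, and 1 member's barcode recurred in another library.

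The share of classical monocytes without Arg1 was higher in every rhabdomyolysis library than in any control library. It was 0.202%, 0.212% and 0.312% of quality barcodes in control, and 1.68%, 3.79% and 3.45% after rhabdomyolysis. The means were 0.242% ± 0.0607 and 2.97% ± 1.13 (SD, n = 3 each), a 12.3-fold ratio. The exact two-sided permutation test gave p = 0.1, the smallest that 3 against 3 libraries allow. Without the Malat1 requirement the ratio was 5.8, and with the 2 or more UMIs of F13a1, Fn1, Vcan and Hp it was 21.4. Vcan and Hp were themselves higher after rhabdomyolysis, and their part in the 21.4 was not tested. Shares of sorted cells cannot tell more monocytes from fewer other leukocytes.

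The share of the nonclassical gate was also higher in every rhabdomyolysis library than in any control library. Nonclassical barcodes were those with 2 or more UMIs of Ace, Cd300e and Treml4, 1 or more of Lyz2, no Ly6c2, no Arg1, and the other exclusions unchanged. Their share was 0.630% ± 0.0931 in control and 3.22% ± 1.74 after rhabdomyolysis (exact permutation p = 0.1). Conventional dendritic cell markers summed to 684 to 907 CPM in the control nonclassical barcodes and to 0 to 4.83 after rhabdomyolysis. The control share, here and within the 3 gates below, may thus count cells that are not monocytes, and their part was not tested. An Arg1-positive gate met the classical rule but had 1 or more Arg1 UMIs. It held 0 barcodes in each control library, with exact binomial upper limits of 0.106% to 0.164% of barcodes, and 5, 14 and 14 after rhabdomyolysis. Members made up 27.9% ± 7.90 of these 3 gates in control and 43.0% ± 14.1 after rhabdomyolysis (exact permutation p = 0.3).

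**Figure D1:**
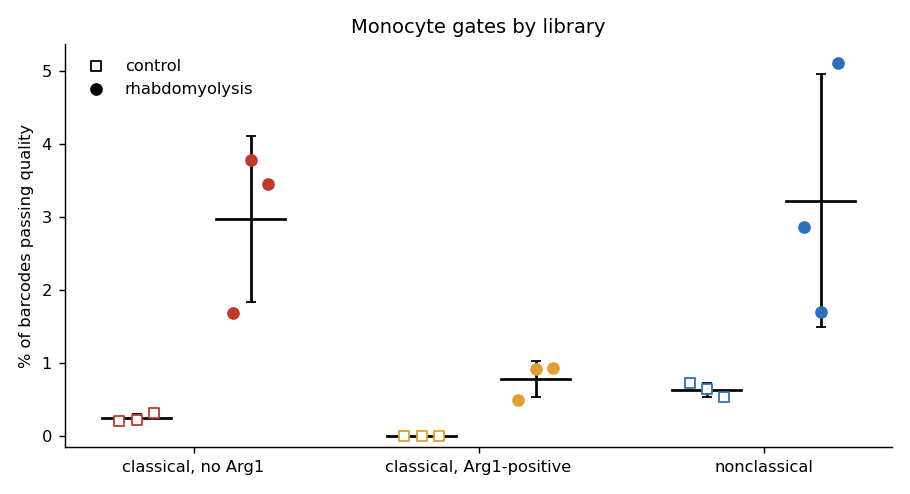
Share of quality barcodes (y axis, percent) in each monocyte gate (x axis), with 1 point per library, open squares for control and filled circles for rhabdomyolysis, and bars for the mean ± SD. All 3 rhabdomyolysis libraries lie above all 3 control libraries in the classical gate, 1.68% to 3.79% against 0.202% to 0.312%.

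Within the rhabdomyolysis libraries the members were compared with nonclassical monocytes of the same library, with library as a block. Of 4041 genes outside the rule, 237 were higher in the members and 274 lower by edgeR's quasi-likelihood test at an adjusted p under 0.05. That is 5.86% and 6.78% of the genes tested, or 12.6% in all. Without rhabdomyolysis library 3, 314 genes were called in place of 511, and with DESeq2 201 were. Members had more UMIs per barcode, with medians of 9136, 9875 and 11041 against 6531, 6567 and 7816. Genes that vary together with the gate genes follow the choice of cells, so the identity genes that open the next paragraph are a check of the label and not a finding.

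Of 13 tested classical identity genes, 11 were higher in the members, none was lower, and the median log2 difference was 1.49 against -0.02 over all genes tested. F13a1, the A chain of coagulation factor XIII, stood at 399, 305 and 329 against 21.3, 52.8 and 19.3. Ccr2 was 692, 267 and 672 against 197, 89.8 and 232, a log2 difference of 1.67 ± 0.16 (SE, adjusted p = 5.4e-07). Within each library the member value was the higher, although the Ccr2 ranges of the gates come close. Emilin2 and Gda, the remaining classical identity genes, differed by 0.11 (adjusted p = 0.75) and 0.08 (adjusted p = 0.83).

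Of 13 tested nonclassical identity genes, 12 were lower in the members and none was higher, with a median of -2.45. Eno3, the muscle-type enolase, had 0 UMIs in the members of every library and 90.6, 127 and 101 CPM in the nonclassical gate. Against a floor of 3 counts over all members it was at least 46.6-fold lower. Ear2, an eosinophil-type ribonuclease, stood at 32.7, 27.9 and 10.4 against 442, 465 and 350. Nr4a1 was 78.4, 216 and 168 against 341, 549 and 401, a log2 difference of -1.39 ± 0.17. Cx3cr1, the fractalkine receptor, was 0, 6.56 and 31.2 against 32.0, 79.2 and 132. Apoc2 did not follow the list (0.13, adjusted p = 0.67). Chil3 was also present in nonclassical cells of these libraries, at 5394, 4241 and 3921 CPM, where the rule had not asked for it. Free RNA held it at 1103 to 1367 CPM and the barcodes with Cd3e or Cd79a at 0 to 4.58.

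The members were higher for acute phase and granule genes. Of 14 tested genes of that list 10 were higher and none lower, with a median log2 difference of 1.54. Lcn2, the siderophore-binding lipocalin 2, stood at 1979, 1260 and 771 CPM in the members and at 42.6, 37.0 and 49.9 in nonclassical cells. Every member value lay far above every nonclassical one, and 22.4% of all genes tested did not overlap between these gates. Free RNA held Lcn2 at 107 to 338 CPM. The log2 difference of Lcn2 was 4.67 ± 0.22 (SE, adjusted p = 1.1e-10). Of 127 members, 97 (76.4%, Wilson 95% interval 68.3% to 82.9%) had a Lcn2 UMI. That interval covers counting error only, and the 3 libraries stood at 88.2%, 70.7% and 78.8%. The share was 15.2% in nonclassical barcodes and 1.16% in 344 barcodes with Cd3e or Cd79a and no Lyz2. Thinned to 1000 UMIs per barcode, the shares were 44.1%, 3.82% and 0.601%.

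Saa3, an acute phase apolipoprotein, was less even between libraries. It stood at 2567, 2959 and 546 in the members and at 277, 364 and 98.3 in nonclassical cells, so that rhabdomyolysis library 3 was low in both gates. The log2 difference was 2.94 ± 0.15 (adjusted p = 1.2e-10). Mmp8, a neutrophil collagenase, stood at 418, 203 and 203 against 10.7, 15.8 and 3.22 (5.07 ± 0.33). Prtn3, the azurophil granule protease proteinase 3, stood at 216, 149 and 145 against 21.3, 0 and 4.83 (4.5 ± 0.39). Free RNA, measured in barcodes of at most 100 UMIs, held Prtn3 at 8.19 to 21.8 CPM. Lrg1, a leucine-rich glycoprotein of the acute phase, stood at 457, 287 and 334 against 42.6, 31.7 and 33.8 (3.35 ± 0.21).

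Lcn2 and Saa3 are acute phase genes at which C/EBP and NF-kB factors are known to act, so the 250 bases before their start sites are shown from RefSeq (GRCm38.p6), 5′ to 3′ on the gene's strand. Capitals mark matches to the C/EBP spelling TTGCNNAA on either strand. The Lcn2 window is chr2:32387740-32387989 on the minus strand, and the Saa3 window is chr7:46715677-46715926 on the minus strand.
Lcn2: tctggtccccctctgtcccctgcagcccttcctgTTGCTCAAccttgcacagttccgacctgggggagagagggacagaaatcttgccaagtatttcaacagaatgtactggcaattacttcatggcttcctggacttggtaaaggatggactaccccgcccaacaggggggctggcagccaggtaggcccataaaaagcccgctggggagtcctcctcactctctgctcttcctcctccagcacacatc
Saa3: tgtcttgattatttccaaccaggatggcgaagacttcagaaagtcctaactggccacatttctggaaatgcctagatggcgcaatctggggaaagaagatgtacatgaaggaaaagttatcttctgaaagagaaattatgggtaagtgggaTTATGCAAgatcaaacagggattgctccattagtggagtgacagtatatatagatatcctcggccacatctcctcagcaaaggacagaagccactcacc
The match begins 216 bases before the start in Lcn2 and 99 bases before it in Saa3. The same spelling occurs in 9.56% of 32851 promoter windows of this length, and a wider one, TTNCNNAA, in 36.8%. An NF-kB consensus spelling occurs in 1.41% of windows and in neither of these. The Lrg1 window held none of the 3 spellings. A match is a description of letters, and no binding was measured here.

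Chemokines and cytokines were higher in the members for 6 of 15 tested genes and lower for none, with a median of 0.53. Ccl2, the ligand of Ccr2, stood at 2528, 2573 and 2627 CPM in the members and at 149, 137 and 598 in nonclassical cells (3.23 ± 0.26, adjusted p = 4.7e-08). The 3 member values lay close together, but in rhabdomyolysis library 1 a single barcode gave 48.6% of the Ccl2 UMIs. Free RNA held Ccl2 at 891 to 1574 CPM. Thbs1, the matrix protein thrombospondin 1, was 836, 910 and 547 against 320, 137 and 219. Osm, the interleukin 6 family cytokine oncostatin M, was 268, 113 and 317 against 58.6, 47.5 and 126. Il1r2, the interleukin 1 decoy receptor, stood at 451, 694 and 121 against 10.7, 42.3 and 20.9, and is also a neutrophil marker.

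Receptors for entry into tissue moved in both directions. Of 18 tested adhesion and migration genes, 8 were higher and 4 lower in the members. Ccr1, a receptor for CC chemokines, stood at 653, 569 and 554 against 133, 47.5 and 182 (2.25 ± 0.23). Itga4 and Itgb7 encode partners of 1 integrin and went opposite ways, with Itga4 lower by a log2 difference of -1.65 ± 0.22 and Itgb7 higher by 1.61 ± 0.22. Cd9, a tetraspanin, was 13.1, 88.6 and 132 against 314, 391 and 425. Among receptors for microbes and antibodies, 10 of 22 were higher and 5 lower. Fcgr1, the high-affinity IgG receptor, was 457, 390 and 301 against 101, 132 and 185, whereas Fcgr4 was 71.9, 78.7 and 76.2 against 197, 275 and 190.

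Of 32 tested transcription factors, 11 were lower in the members and 3 higher, with a median of -0.16. Klf2, a factor of quiescent leukocytes, was 732, 1099 and 740 against 1695, 2144 and 1384. Pou2f2 was 91.5, 93.5 and 88.3 against 266, 412 and 472. Bcl2, which blocks apoptosis, was 6.53, 18.0 and 13.9 against 79.9, 58.1 and 67.7. In all, 5 of 18 survival and death genes were lower and 2 higher, with a median of 0.04. Bcl2a1b and Bcl2a1d were among the lower ones, but near-identical copies may have split their reads.

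Of 15 Arg1-associated repair genes, 9 were higher in the members and 1 lower, with a median of 0.88. Of 19 type I interferon genes, 4 were higher and none lower, with Ifi209 the clearest (327, 164 and 244 against 79.9, 73.9 and 110). Of 16 oxidative stress genes, 7 were higher and 2 lower. The metal-binding Mt1 stood at 1326, 1196 and 1015 against 325, 327 and 269, and free RNA of these libraries held it at 1023 to 5663 CPM. Of 14 MHC class I genes, 3 were lower and 1 higher, with H2-D1 at -0.74 ± 0.09 and B2m at -0.73 ± 0.10. Of 13 glycolysis and hypoxia genes 3 were higher and none lower, Pkm by 0.74.

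Several MHC class II genes depended on the 6 members without identity genes. With all members 2 of 9 list genes were higher and none lower, and without the 6 barcodes 1 was higher and 4 lower. Ifi30, a lysosomal thiol reductase, was higher by 1.08 in both fits. With all members, H2-Aa differed from nonclassical cells by -0.34 ± 0.36 (adjusted p = 0.63) and H2-Ab1 by 0.27 ± 0.42 (adjusted p = 0.75). With 2 or more UMIs of F13a1, Fn1, Vcan and Hp required, H2-Aa differed by -4.16 ± 0.45 (edgeR adjusted p = 3.9e-07). H2-Ab1 differed by -4.34 ± 0.53 (edgeR adjusted p = 2.3e-06). The requirement was set for the members only, and the nonclassical gate was left as it was. In that gate a single barcode gave 60.4%, 92% and 27.3% of the 111, 25 and 527 H2-Aa UMIs of the libraries. The part of such barcodes in these differences was not tested. H2-Aa was seen in 11% of members, 19.7% of nonclassical barcodes and 58.1% of the barcodes with Cd3e or Cd79a.

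**Figure D2:**
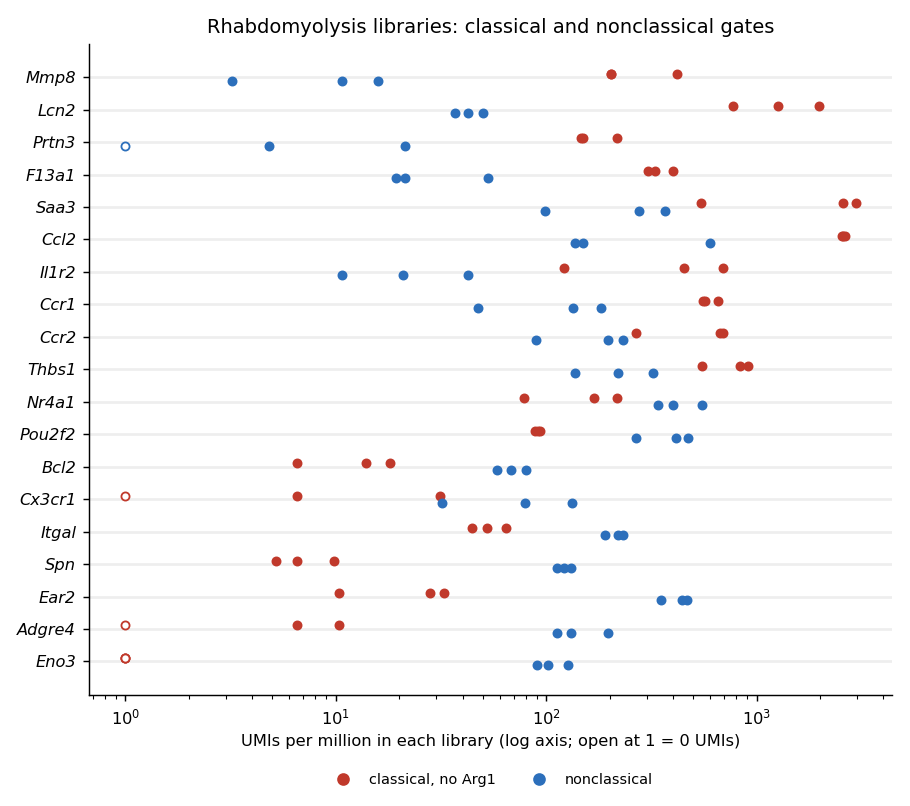
CPM (x axis, log scale) of 19 genes (y axis) in the classical and nonclassical gates, with 1 point per rhabdomyolysis library; open points at 1 stand for 0 UMIs. From Mmp8 to Thbs1 the classical points lie to the right, as for Lcn2 at 771 to 1979 against 37.0 to 49.9, and from Nr4a1 to Eno3 they lie to the left, closest for Cx3cr1 at 31.2 against 32.0.

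The antibody tags gave a readout that the rule did not use. Among the 6 tags, F4/80, a macrophage surface protein, took 40.1%, 43.8% and 41.2% of tag UMIs in the members and 35.9%, 38.7% and 38.6% in nonclassical cells. It took 7.77% ± 1.69 in barcodes with Cd3e or Cd79a. P2X7R, an ATP-gated channel, took 14.2%, 14.4% and 12.5% in the members, 10.3%, 10.9% and 10.1% in nonclassical cells and 3.99% ± 0.519 in the lymphoid barcodes. Both tags were higher in the members of all 3 libraries, by 3.98 ± 1.29 and 3.28 ± 0.796 percentage points (SD, n = 3). These are shares of 1 total, so a higher share of one tag goes with lower shares of others. Per barcode, the median F4/80 UMIs were 9, 13.5 and 19.5 in the members and 10, 10 and 18 in nonclassical cells, and library 1 went the other way. Median P2X7R UMIs were 3, 4.5 and 6 in the members and 3, 2.5 and 5 in nonclassical cells, equal in library 1. The CD4 share was lower in all 3 libraries, with a difference of -4.17 ± 1.78 points, and so was CD8a, with -2.91 ± 3.0. In the barcodes with Cd3e or Cd79a, CD4 took 18.7% ± 3.12 of tag UMIs and CD8a took 17.2% ± 1.73. The members' shares were close to these, at 18.0% ± 1.01 and 15.7% ± 2.82. The part of unspecific tag signal in these shares was not tested. Against nonclassical cells, the exact sign-flip permutation test gave p = 0.25 for each of these 4 tags, the smallest 3 pairs allow.

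**Figure D3:**
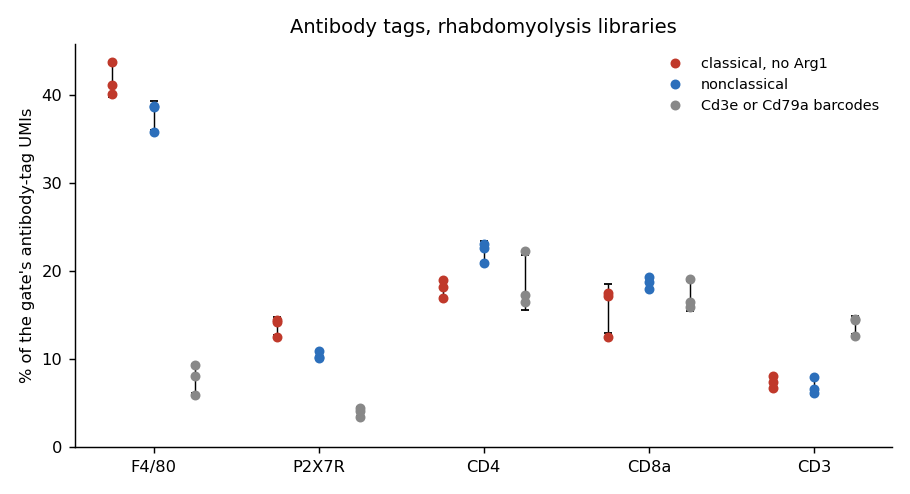
Percent of a gate's antibody-tag UMIs (y axis) for each of 5 tags (x axis), with 1 point per rhabdomyolysis library and whiskers for mean ± SD. F4/80 and P2X7R points of the classical gate lie above the nonclassical ones in every library, at 40.1% to 43.8% against 35.9% to 38.7% for F4/80.

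The nearest neighbours of the members were classical barcodes with Arg1. Rhabdomyolysis libraries 2 and 3 had 10 or more Arg1-positive barcodes, so the test rests on these 2 and has 1 residual degree of freedom. Its SE and p-values borrow spread from other genes and do not measure how well the 2 libraries match for a single gene. Of 4211 genes, 146 were higher in the members without Arg1 (3.47%) and 158 lower (3.75%), 7.22% in all, by edgeR. Arg1-positive barcodes were deeper, with medians of 15695 and 15132 UMIs. Thinned to 1000 UMIs per barcode, 3 of 531 genes tested were called, and without the library block 19 of 4211 were. The part of depth in this contrast was not tested further.

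Arg1 itself set these 2 gates apart, so genes that vary together with Arg1 follow the choice of cells. The list of Arg1-associated repair genes is therefore a check of the label and not a finding. Its genes were lower in the members for 12 of 17 tested and higher for 1, with a median log2 difference of -1.37. Spp1, the secreted phosphoprotein osteopontin, stood at 372 and 296 CPM without Arg1 and at 1857 and 8466 with it (-3.54 ± 0.33, adjusted p = 1.6e-07). Ecm1, an extracellular matrix protein, was 354 and 199 against 1151 and 863. Macrophage maturation genes were lower for 7 of 16 and higher for none. Pf4, platelet factor 4, was 13.1 and 26.0 against 338 and 644, and Lpl, lipoprotein lipase, was 8.20 and 1.73 against 55.6 and 164. The gates did not overlap for any of these 4 genes, nor did they for 44.3% of all genes tested in these 2 libraries. Spp1 and Pf4 also reached 1847 and 1289 CPM in free RNA.

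Chemokines were lower for 9 of 20 and higher for 1. Cxcl3, a neutrophil-attracting chemokine, was 96.8 and 1.73 against 869 and 44.6, so library 2 carried most of it. Ccl7, a Ccr2 ligand, was 161 and 58.9 against 257 and 1854, with library 3 high. All 5 glycolysis genes that changed were lower, Ldha by -0.82 and Pkm by -0.71, out of 15 tested. With the 4 identity genes required, 5 chemokines and 5 repair-associated genes passed the test as lower. No glycolysis gene passed, though Ldha differed by -0.82 (adjusted p = 0.059) and the list's median was -0.60 against -0.65. Msr1, a scavenger receptor, was 218 and 154 against 501 and 605, and Fcgr1 was 390 and 301 against 779 and 714.

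Of 13 classical identity genes, 5 were higher in the members without Arg1 and 1, Fn1 (-0.69, adjusted p = 0.012), was lower. Ifitm6, an interferon-induced membrane protein, stood at 645 and 547 against 150 and 134 (2.12 ± 0.21, adjusted p = 3.5e-07). Hp, the haemoglobin scavenger haptoglobin, was 1778 and 1732 against 582 and 535. Of 31 transcription factors 10 were higher and none lower, with Klf2 at 1099 and 740 against 321 and 203 and Nr4a1 at 216 and 168 against 51.3 and 39.7. Lcn2 was 1260 and 771 against 364 and 367. Ccr2, at 267 and 672 against 291 and 530, differed by 0.18 (adjusted p = 0.65).

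With 2 or more UMIs of F13a1, Fn1, Vcan and Hp required, 70 genes were called, all of them among the 304. Ifitm6, Hp, Klf2, Nr4a1, Spp1 and Pf4 were among them. The higher H2-Aa of the members (2.90, adjusted p = 1.1e-05) became -0.72 (adjusted p = 0.61). With 5 or more barcodes per library, all 3 libraries entered and 291 genes were called, 228 of them shared with the 304.

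**Figure D4:**
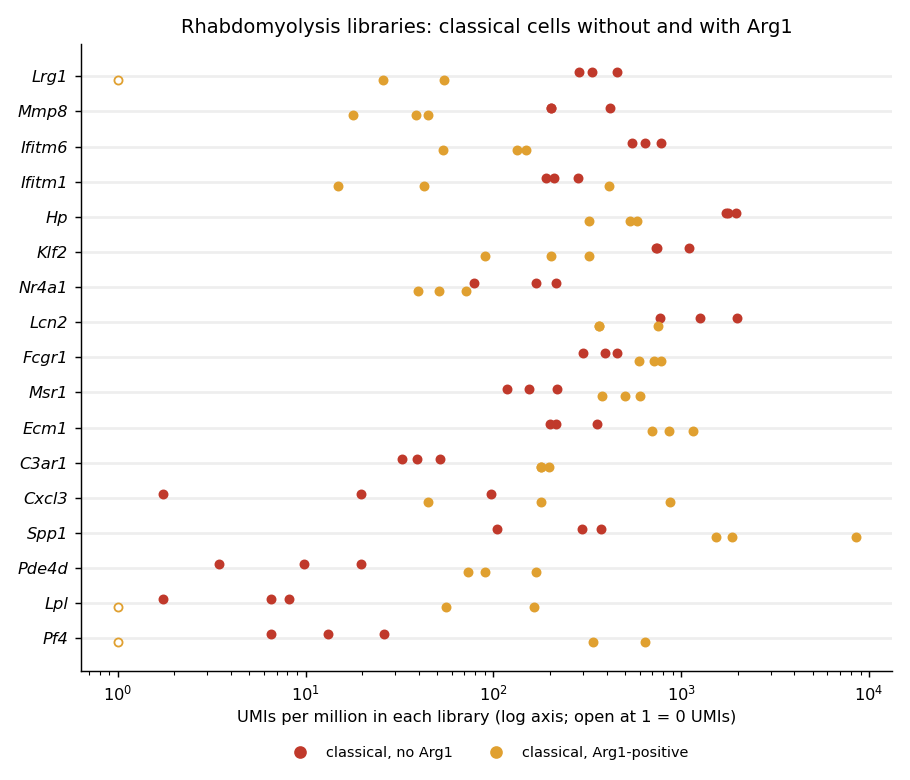
CPM (x axis, log scale) of 17 genes (y axis) in classical barcodes without and with Arg1, with 1 point per rhabdomyolysis library, library 1 holding only 5 Arg1-positive barcodes; open points at 1 stand for 0 UMIs. Upper genes such as Lrg1 lie to the right without Arg1, and lower genes such as Spp1 lie to the right with Arg1, at 1857 and 8466 in libraries 2 and 3.

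Classical members of rhabdomyolysis and control kidneys were compared last, over 6, 7 and 7 control barcodes. No control library held 10 barcodes, so the fit took libraries with 5 or more. The plan had foreseen values without a test in that case, so this fit departs from it. Of 1512 genes, 104 were higher after rhabdomyolysis (6.88%) and 90 lower (5.95%), 12.8% in all, by edgeR's quasi-likelihood test. With 2 or more UMIs of F13a1, Fn1, Vcan and Hp required, 11 control and 121 rhabdomyolysis barcodes remained (3, 5 and 3 per control library), and 122 genes were called, 94 of them shared with the 194. Leaving out rhabdomyolysis library 1 or 2 gave 101 or 99 calls, and scaling by library totals gave 132 higher and 75 lower.

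Saa3, Lcn2 and Lrg1 had 0 control UMIs against 2512, 1516 and 438 in the rhabdomyolysis members. Against a floor of 3 counts over the control group, they were at least 111-fold, 67.2-fold and 19.4-fold higher (adjusted p = 0.0049, 0.0011 and 0.0015). Spp1, Il1r2, Ifitm1 and Clec4d were also at 0 in all control members, and at least 18.3-fold, 24.9-fold, 14.3-fold and 12-fold higher. Free RNA of the rhabdomyolysis libraries held Spp1 at 955 to 1847, Il1r2 at 67.4 to 327, Ifitm1 at 241 to 391 and Clec4d at 136 to 190 CPM. The rhabdomyolysis members held 105 to 372, 121 to 694, 189 to 282 and 157 to 225 CPM, so Spp1 lay below free RNA and the other ranges overlapped it. The part of free RNA in these values was not tested. With the 4 identity genes required, Il1r2 lost the call (edgeR adjusted p = 0.051), and Spp1, Ifitm1 and Clec4d kept it. Of 14 alarmin and granule genes 9 were higher and none lower, with a median of 1.57.

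Inflammatory mediators followed. Of 10 tested cytokines and chemokines, 6 were higher and none lower, with a median of 3.44. Cxcl2, a neutrophil-attracting chemokine, stood at 6174, 4187 and 3675 CPM after rhabdomyolysis and at 18.2, 18.9 and 228 in control (5.47 ± 0.54, adjusted p = 0.00058). Il1b, interleukin 1 beta, was 738, 656 and 928 against 54.6, 94.4 and 0. Ccr1 was 653, 569 and 554 against 54.6, 37.8 and 57.0 (3.43 ± 0.30, adjusted p = 0.0004). The groups did not overlap for these 3 genes, nor for 35.1% of all genes tested. Ccr1 was named among the largest changes, for which groups without overlap were a condition. Free RNA held Cxcl2 at 2340 to 3610 and Il1b at 670 to 1018 after rhabdomyolysis. Trem1, an amplifying receptor of myeloid cells, had 1 control UMI, a ratio of 35.2 with a counting interval of 6.27 to 1396.

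Of 12 oxidative stress genes 4 were higher and none lower, among them Gsr, glutathione reductase, at 928, 1082 and 641 against 127, 245 and 71.2. Of 8 heme and iron genes 4 were higher and none lower. Hp was 1947, 1778 and 1732 against 164, 491 and 399 (2.27 ± 0.30), and 1.5 (adjusted p = 0.0027) where Hp itself helped to choose the cells. Hmox1, which breaks down heme, was 111, 274 and 305 against 36.4, 37.8 and 14.2, the latter from 5 control UMIs. Of 10 glycolysis and hypoxia genes 3 were higher and none lower. Gapdh, a glycolytic enzyme, was 2287, 2586 and 2252 against 928, 850 and 1040.

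Of 13 classical identity genes, 4 were higher after rhabdomyolysis and none was lower. Ccr2 was 692, 267 and 672 after rhabdomyolysis and 837, 623 and 413 in control (-0.32, adjusted p = 0.65). The groups overlapped, and a p above the threshold does not show that they were alike.

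Several genes were lower after rhabdomyolysis. Irf8, a factor of monocyte and dendritic cell lineages, was 84.9, 85.3 and 192 against 692, 340 and 898 (-2.46 ± 0.41, adjusted p = 0.005). Fosb, an immediate early gene, was 71.9, 133 and 135 against 400, 661 and 470. Lpl was 6.53, 8.20 and 1.73 against 109, 208 and 185. These 3 were also lower with the 4 identity genes required, by -2.32, -2.65 and -5.30 on the log2 scale. Hpgd, which inactivates prostaglandins, was 0, 9.84 and 3.46 against 309, 340 and 171, and control free RNA reached 432 CPM.

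Of 9 MHC class II genes 6 were lower and 1 higher. Cd74, the invariant chain, was 1685, 1191 and 852 against 12740, 4268 and 6240, while free RNA of the control libraries reached 22642 CPM. Cd74 differed by -2.77 with all members and by -3.90 (adjusted p = 0.0084) with identity genes required, which took barcodes from both groups. In that fit 4 of the list's genes were tested, with 2 lower and none higher, and H2-Aa, H2-Ab1 and H2-Eb1 were not among them. Ighm, an immunoglobulin heavy chain, was 0, 1.64 and 46.8 against 328, 453 and 385, with control free RNA up to 480. The part of free RNA and of mixed droplets in these lower values was not tested.

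**Figure D5:**
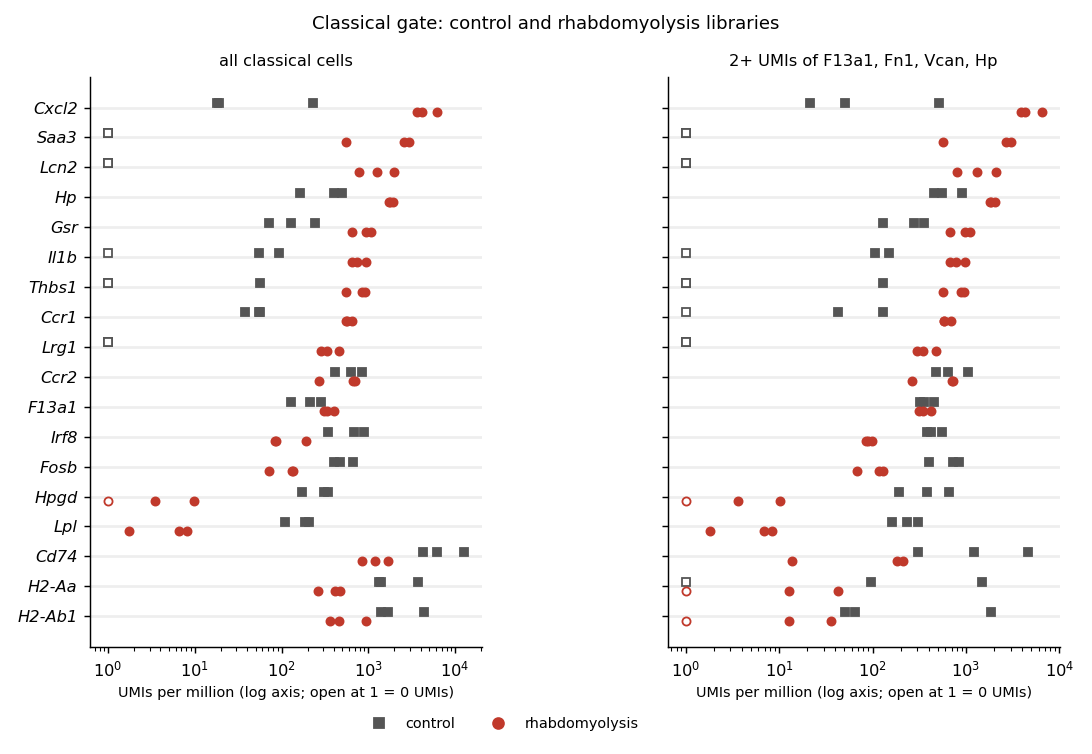
CPM (x axes, log scale) of 18 genes (y axis) in the classical gate, with 1 point per library, squares for control and circles for rhabdomyolysis, for all members (left) and for those with 2 or more UMIs of F13a1, Fn1, Vcan and Hp (right); open points at 1 stand for 0 UMIs. Saa3, Lcn2 and Lrg1 are at 0 in all control libraries in both panels, while H2-Aa drops from left to right in every library but control 2, which goes from 1397 to 1478.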

How the data were processed

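Single-cell RNA was measured in 3 control and 3 rhabdomyolysis libraries. The deposited matrices hold raw UMI counts per gene and barcode, written by Cell Ranger 4 per the file headers and aligned to mm10 per the submitters' processing notes. They are not filtered to cells and list 32285 genes and 6 antibody tags. Barcodes were chosen by the rule in the report. The members and gene lists were chosen with earlier results of these data known. Counts were summed per library and gate and tested with edgeR 4.0.16 (quasi-likelihood, TMM, filterByExpr, Benjamini-Hochberg over all genes tested, gate genes untested), with library as block inside rhabdomyolysis. Gates needed 10 barcodes per library. As no control library had 10, a minimum of 5 was used there, where the plan had foreseen values and no test. Single values had exact permutation tests. The code was tested on simulated data. Intervals cover counting error only.

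Named genes were those with the largest change, up to 12 per direction. They were taken from genes with adjusted p under 0.05 and average log2 CPM (from the deposited counts) of 5 or more. Within rhabdomyolysis they needed the same direction in every library, and against control they needed groups that did not overlap. Free RNA of each rhabdomyolysis library had to stay below 50% of the higher level, and mitochondrial, ribosomal and unnamed genes were left out. Up to 4 changed genes per list and every identity gene were added. Alternatives were DESeq2 1.42.0, library totals, no filter, other gate thresholds, thinning to 1000 UMIs, each library left out and the replicate block. Gene levels in the nonclassical gate were not compared between rhabdomyolysis and control, since its control barcodes carried dendritic cell markers. Some genes and tags are not reported here.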

Additional observations from a re-analysis of the deposited data

How the results depend on the processing

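The precision is limited by few barcodes (6 or 7 per control library) and by 2 libraries in the Arg1 comparison. The share of classical monocytes kept its direction under every alternative tried, in a design whose p cannot pass the threshold. Leaving out each library gave differences of 2.32 to 3.38 percentage points.

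Against nonclassical cells, 511 genes were called. DESeq2 called 201 of 2863, the fit with no replicate block 274 of 4041, thinned counts 73 of 592, and the fits with 1 library left out 314 to 487 (314 of 2432 without rhabdomyolysis 3). Of the values for single named genes there, 950 kept direction and call, 85 lost the call and 2 reversed, Gda to -0.028 and Apoc2 to -0.22 with thinned counts.

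Against Arg1-positive cells, 304 genes were called. DESeq2 called 47, no replicate block 19, thinned counts 3, and the requirement of identity genes 70. Of the values for single named genes, 328 kept direction and call, 174 lost the call and 10 reversed. Thinned counts turned Ccr2 to -0.074, F13a1 to -0.37, Cd14 to -0.19 and Apoc2 to -0.20. Cd14 was -0.16 with 5 or more barcodes, and Fcgr4 was 0.063 with DESeq2 and 0.037 without a filter. With identity genes required H2-Ab1 was -0.75, H2-Eb1 -0.67 and H2-Aa -0.72. Leaving out a library, dropping the deepest 5% of barcodes and Ly6c2 at 2 or more UMIs were not run there, since fewer than 2 libraries remained.

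Against control, 194 genes were called. No filter on low counts gave 703, thinned counts 40, identity genes 122, and leaving out a library 99 to 255. Of the values for single named genes, 758 kept direction and call, 86 lost the call, 15 gained it and 20 reversed. Same-numbered libraries correlated at -0.04, -0.05 and 0.04, so no pairing by number was detected. The replicate block gave 131 calls, 130 of them among the 194, and p = 0.25 for the share by the exact sign-flip permutation test, the smallest 3 pairs allow. Genes that were not called there reversed as follows. Without a filter Ccr2 was 0.25, Ms4a4c 0.34, Gngt2 0.50 and Pou2f2 0.39. Without the deepest 5% of barcodes Ccr2 was 0.90, Ms4a4c 0.22, Gngt2 0.43 and Pou2f2 7.89. That fit kept 1 control library, of 5 barcodes and 0 Pou2f2 UMIs, assumed to vary like the other group, so 7.89 is a fitted value and no bound. With identity genes required F13a1 was -0.13 and Mgst1 -0.053. Gngt2 was 0.054 with library totals and 0.024 with the replicate block. With 1 library left out, Ccr2 ranged from -0.53 to 0.057, Ms4a4c from -0.58 to 0.20, Gngt2 from -0.35 to 0.93 and Pou2f2 from -0.48 to 0.10. The causes of these changes were not tested. Chosen after seeing the data were the identity-gene requirement, the Arg1 fit with 5 or more barcodes and, against control, thinning, Ly6c2 at 2 or more UMIs and dropping the deepest barcodes. The test against control with 5 or more barcodes per library also departed from the plan.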
